A study of Mus musculus with 19 samples.

Results

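The genes described here are 10 hormone and granule genes of the enteroendocrine cell: *Cck*, *Sct*, *Gcg*, *Gip*, *Sst*, *Ghrl*, *Tph1*, *Chga*, *Pyy*, and *Tac1*. They were chosen by name, and each symbol matched 1 of the 55487 genes in the files. All 10 passed the filter on low counts, which left 17875 genes for testing. RNA came from small intestinal crypts of 19 adult C57BL/6 mice of both sexes, 1 library per mouse. Per the study's methods, crypts were taken from the larger, proximal part of the organ, and its distal end was not used. Neurotensin is itself an enteroendocrine peptide, and the study asked how its loss acts in crypts under feeding and fasting. Of the NT+/+ mice, 5 ate standard chow ad libitum and 5 were fasted, with water, for 48 hours. The NT-/- mice, which are neurotensin knockouts, were 4 with food and 5 fasted. The labels name no other allele or agent, whereas the study also describes an Lgr5-EGFP reporter allele, which marks intestinal stem cells, in both genotypes. Whether each of these 19 mice carried it is not given in the labels. Crypts were released with a chelating agent and filtered rather than sorted, so the RNA is that of all crypt cells.

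Enteroendocrine cells are rare, scattered epithelial cells that sense the contents of the gut and release peptides or serotonin. They arise from crypt progenitors that pass through a phase of *Neurog3* expression, and then mature as they move toward the villus. Subtypes differ by product: D cells make somatostatin (*Sst*), L cells make the glucagon-like peptides (*Gcg*) and peptide YY (*Pyy*), K cells make *Gip*, I cells make cholecystokinin (*Cck*), and enterochromaffin cells make serotonin through *Tph1* and often the tachykinin precursor *Tac1*. Secretin (*Sct*) is found in several subtypes, *Ghrl* encodes ghrelin, and chromogranin A (*Chga*) is a protein of the secretory granule itself. In RNA from whole crypts, fewer cells of a subtype and less RNA per cell cannot be told apart.

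Levels are given as CPM (counts scaled to TMM-normalized library size) for comparisons of 1 gene among mice, and as TPM (which also divides by transcript length) for comparisons among genes. Counts on genes ranged from 9059457 to 35068711 per mouse. Replicates 2 and 4 of the fasted NT-/- mice had the lowest totals, and 1 ribosomal RNA gene took 11.5% of the counts of replicate 1 of the ad libitum–fed NT+/+ mice, so the members and the named genes of the other lists were also tested without these 3 libraries, and each call lost that way is given beside its result. The deleted gene, *Nts*, lay between 4.98 and 8.59 CPM in the 10 NT+/+ mice and between 0.145 and 0.793 CPM in the 9 NT-/- mice. Among NT+/+ mice it was 6.75 to 8.59 CPM with food and 4.98 to 5.71 CPM after fasting. These groups did not overlap, as for 6.97% of all genes on the lower side. The log2 fold change of −0.53 did not pass in edgeR. The exact permutation p of *Nts* was 0.00794. DESeq2 called 1 lower of the 2 gut peptide genes tested outside the members. Of these 2, only *Nts* fell in edgeR, and the other had a log2 fold change of 0.82. Replicate 5 of the fasted NT+/+ mice carries a second label that reads NT-/-. Its *Nts* level was 5.43 CPM, within its titled group, where it was kept.

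Short stretches of promoter are shown for the 5 members that passed a test of fasting (*Sst*, *Chga*, *Gcg*, *Pyy*, and *Cck*) and for 2 that share a motif with them. Each is the stretch from 60 to 31 bases before the RefSeq start of the gene, on the strand of the gene, from the RefSeq promoter table of build GRCm38.p6. Capitals mark TGACG on either strand, extended to TGACGTCA or TGACGTAA where those are present. TGACG is the core of the cyclic AMP response element, and TGACGTCA is its full palindrome.
Sst: cgcctccttggcTGACGTCAgagagagagt
Chga: cgggggggcggtcctaTGACGTAAtttcct
Cck: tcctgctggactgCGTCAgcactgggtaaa
Tph1: ttcacacttctaaaaatgtgcgtgTGACGc
Tac1: acgtggctctacaggctCGTCAcgcctgag
Gcg: gcgtaatatctgcaaggctaaacagcctgg
Pyy: cccctggactcccccctccctttccaagtg
The *Sst* stretch is chr16:23890875-23890904 (minus strand) and the *Chga* stretch is chr12:102554881-102554910 (plus strand). The *Cck*, *Gcg*, and *Pyy* stretches are chr9:121495725-121495754, chr2:62483684-62483713, and chr11:102107863-102107892, all on the minus strand. *Tph1* is shown at chr7:46672568-46672597 (minus strand) and *Tac1* at chr6:7555001-7555030 (plus strand).

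All 10 members had an entry in the promoter table. Over the 250 bases before the start, TGACG on either strand was found in 5 of the 10 members, and in 17.8% of the 32851 promoters of the table. The full TGACGTCA was found only in *Sst* among the members, 48 bases before its start, and in 1.55% of all promoters. TGACGTAA was found only in *Chga*, 44 bases before its start, and in 0.447% of all promoters. The 5 members with TGACG did not move together: *Sst* and *Chga* rose with fasting, *Cck* fell in the average over genotypes, and *Tph1* and *Tac1* did not pass the test. The motif was picked from 14 looked at, with the expression results known, and a match describes letters only. The shares are over all entries of the table, whereas each member has 1, the entry nearest its start in the GENCODE annotation. The counts beside the shares are thus no test of enrichment. For *Sst* and *Tac1* the start used lay 114 and 182 bases from the GENCODE start.

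Levels per length are given as means over both genotypes within each diet. In ad libitum–fed mice, *Gip* was highest (46.6 ± 7.64 TPM; SD, n = 9), followed by *Gcg* at 35.1 ± 3.14 TPM and *Chga* at 33.0 ± 1.89 TPM. *Cck* (17.2 ± 2.30 TPM), *Ghrl* (15.3 ± 2.40 TPM), and *Sst* (14.1 ± 2.20 TPM) formed the middle, above *Sct* (12.0 ± 1.59 TPM), *Tac1* (8.34 ± 0.884 TPM), and *Tph1* (5.97 ± 1.13 TPM). *Pyy*, a peptide made mostly in the distal gut, was lowest at 3.69 ± 1.13 TPM. Of the 9 pairs of neighbors in this order, 6 differed within mice by an exact sign-flip test. The exceptions were *Gcg* over *Chga* (higher in 6 of 9 mice; exact test, adjusted p = 0.141), *Cck* over *Ghrl* (6 of 9; exact adjusted p = 0.126), and *Ghrl* over *Sst* (6 of 9; exact adjusted p = 0.176).

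The order was another one in fasted mice. *Gip* (48.1 ± 5.91 TPM; SD, n = 10) was again first and *Pyy* (2.44 ± 0.339 TPM) last. *Chga* (42.7 ± 5.96 TPM) lay above *Gcg* (27.0 ± 4.23 TPM) in 10 of 10 fasted mice, whereas *Gcg* lay above *Chga* in 6 of 9 fed mice. *Sst* (21.2 ± 2.91 TPM) lay above *Cck* (14.4 ± 2.01 TPM) in 10 of 10 fasted mice, whereas *Cck* lay above *Sst* in 8 of 9 fed mice. *Ghrl* (16.8 ± 3.53 TPM) stood between them in both diets. Again 6 of 9 neighbors differed, and the exceptions were *Gip* over *Chga* and *Ghrl* over *Cck* (7 of 10 mice and exact adjusted p = 0.0528 for each) and *Tph1* over *Tac1* (4 of 10 mice; exact adjusted p = 0.955). Pooled over diets, as the 19 mice are shown, 7 of 9 neighbors differed by a sign-flip permutation test, and *Sst*, *Ghrl*, and *Cck* did not separate.

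**Figure D1:**
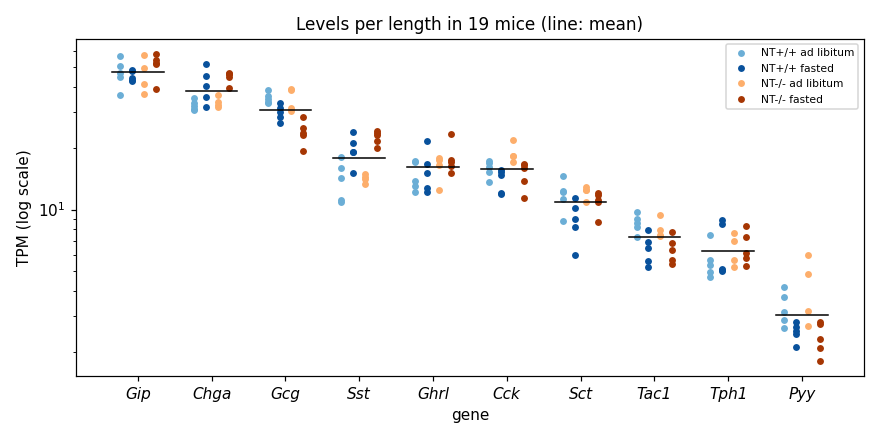
TPM of each gene (log axis) in each of 19 mice, colored by group, with a line at the mean of all mice. *Gip*, *Chga*, and *Gcg* lie at the top with means of 47.4, 38.1, and 30.9 TPM, and *Pyy* lies at the bottom with a mean of 3.03 TPM.

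Fasting changed the hormone genes in both directions. In NT+/+ mice, *Sst* and *Chga* rose and no member fell: 2 of 10 passed the test, where 21.6% of all genes tested did (11.2% higher and 10.4% lower). In NT-/- mice, *Sst* and *Chga* rose and *Gcg* and *Pyy* fell: 4 of 10 passed, against 25.2% of all genes (12.5% higher and 12.6% lower). Averaged over both genotypes, 5 of 10 passed (2 higher, 3 lower), against 39.4% of all genes (19.2% higher and 20.2% lower). A count of 2, 4, or 5 among 10 genes is close to these background shares.

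Fasted and fed mice did not overlap at all for 1 of 10 members in NT+/+ mice (*Sst*, higher), against 14.6% of genes (7.63% higher, 6.97% lower). This held for 4 of 10 in NT-/- mice (*Sst*, higher, and *Cck*, *Gcg*, and *Pyy*, lower), against 21.3% of genes (10.5% higher, 10.8% lower). The median log2 fold change of the 10 members was −0.06 in NT+/+ and −0.05 in NT-/- mice, beside −0.01 and −0.02 over all genes tested. Calls are at an adjusted p under 0.05 from edgeR's quasi-likelihood test. In the exact permutation test of fasting, unadjusted p was under 0.05 in NT+/+ mice only for *Sst* (0.00794) and *Chga* (0.0317). In NT-/- mice it was so for *Cck* and *Pyy* (0.00794 each), *Gcg* and *Sst* (0.0159 each), and *Chga* (0.0238). The share of all genes was not computed for that test.

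*Sst* encodes somatostatin, which inhibits the release of most other gut hormones. It was 7.004, 7.34, 6.74, 9.54, and 8.17 CPM in the ad libitum–fed NT+/+ mice, and 11.4, 10.2, 12.8, 12.9, and 9.74 CPM in the fasted NT+/+ mice. Every fasted mouse was above every ad libitum–fed mouse. The log2 fold change was 0.55 ± 0.124 (SE), or 1.47-fold, with an edgeR adjusted p of 0.00330 and an exact permutation p of 0.00794, the smallest the design allows.

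Among NT-/- mice, *Sst* was 9.47, 7.74, 7.85, and 7.19 CPM with food, and 14.2, 10.3, 13.4, 13.1, and 13.5 CPM after fasting. The groups again did not overlap. The lowest fasted value, in replicate 2, came from the shallowest library, with 91 counts on *Sst*. The log2 fold change was 0.68 ± 0.132 (SE), or 1.60-fold, with an edgeR adjusted p of 0.000882. *Sst* passed the test in each genotype in all 19 fits that left out 1 mouse.

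*Chga* rose by a smaller factor. It was 58.4, 43.5, 51.8, 50.9, and 46.3 CPM in ad libitum–fed NT+/+ mice and 67.7, 52.6, 75.4, 76.6, and 57.2 CPM after fasting. The groups overlapped, with 3 of the 5 fasted mice above all ad libitum–fed mice. The log2 fold change was 0.39 ± 0.118 (SE), with an edgeR adjusted p of 0.0212. Values in NT-/- mice were 64.2, 48.4, 51.7, and 48.0 CPM with food and 84.6, 64.5, 61.8, 66.7, and 76.9 CPM after fasting, with 4 of 5 fasted mice above all fed ones (log2 fold change, 0.42 ± 0.126 SE; edgeR adjusted p = 0.0195). Each of these calls rested on single mice. In NT+/+ mice it was lost without replicate 2 or 5 of the fed or replicate 3 or 4 of the fasted mice (log2 fold change, 0.33 to 0.37; edgeR adjusted p up to 0.0672). The call in NT-/- mice was lost without replicate 2, 3, or 4 of the fed or replicate 1 of the fasted mice (0.34 to 0.40; adjusted p up to 0.0662). Averaged over genotypes the rise held in all 19 such fits.

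The mice also carry a set number in their file names, and mice of the same set tended to deviate together. *Sst* and *Chga* were each higher in the fasted mouse in 9 of 9 fed and fasted pairs of the same set and genotype. Among the other members, *Gcg* and *Pyy* were lower in 8 of 9, *Cck* and *Sct* in 7 of 9, and *Tac1* in 6 of 9. *Ghrl* was higher in 7 of 9, *Tph1* in 6 of 9, and *Gip* in 5 of 9. The share of all genes with such agreement was not computed.

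**Figure D2:**
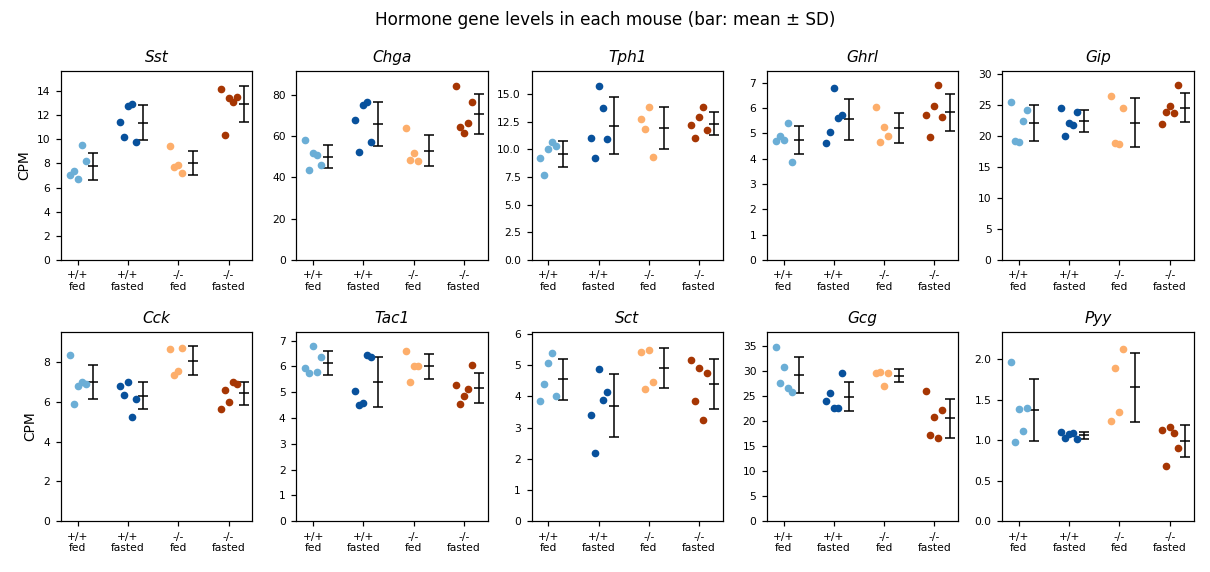
CPM of each of the 10 genes in each mouse, by group (+/+ and -/- are NT+/+ and NT-/-; fed is ad libitum), with points for mice and a bar for the mean ± SD of 4 or 5 mice. In the *Sst* panel every fasted mouse lies above every fed mouse of its genotype, and in the *Gcg* panel the fasted NT-/- mice lie between 16.6 and 26.0 CPM, below the fed NT-/- mice at 27.1 to 29.8 CPM.

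*Gcg* encodes proglucagon, from which L cells cut the glucagon-like peptides. In NT-/- mice it was 29.6, 29.8, 27.1, and 29.7 CPM with food and 26.0, 17.1, 20.8, 16.6, and 22.2 CPM after fasting. All 5 fasted mice were below all 4 fed mice. The log2 fold change was −0.49 ± 0.121 (SE), with an edgeR adjusted p of 0.00549.

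The same gene was 34.7, 27.7, 30.8, 26.6, and 25.9 CPM in ad libitum–fed NT+/+ mice and 24.04, 25.6, 22.6, 22.6, and 29.5 CPM in fasted ones. Here the groups overlapped through 1 fasted mouse, and the log2 fold change of −0.23 ± 0.114 (SE) did not pass (edgeR adjusted p = 0.163). That mouse was replicate 5, at 29.5 CPM, whose second label reads NT-/-, and the other 4 lay below all fed mice. *Gcg* in NT+/+ mice did not pass in any of 19 fits without 1 mouse (adjusted p from 0.0730) or in any of 10 other settings. The fasted NT-/- mice with the lowest *Gcg* values, replicates 2 and 4, were also the 2 shallowest libraries. Without the 3 libraries that stood apart, the value in NT-/- mice was −0.31, with an edgeR adjusted p of 0.0501, and the average over genotypes was −0.23 and still passed, with an adjusted p of 0.0186.

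*Pyy* encodes peptide YY, which slows gut transit and reduces appetite. In NT-/- mice it was 1.24, 1.89, 1.35, and 2.13 CPM with food and 1.12, 0.681, 1.16, 1.09, and 0.898 CPM after fasting. Fasted and fed mice did not overlap, and the log2 fold change was −0.71 ± 0.234 (SE; edgeR adjusted p = 0.0324). The counts behind these values were few, between 6 and 42 per mouse. In NT+/+ mice *Pyy* was 1.97, 0.979, 1.39, 1.12, and 1.40 CPM with food and 1.10, 1.02, 1.08, 1.09, and 1.01 CPM after fasting, which overlapped (log2 fold change, −0.37 ± 0.221 SE; edgeR adjusted p = 0.257). The call in NT-/- mice held in 5 of 10 other settings, with edgeR or DESeq2 adjusted p between 0.0273 and 0.0880 over them. It was lost without fed replicate 2 or 4 or fasted replicate 2 or 5 (log2 fold change, −0.66 to −0.56; edgeR adjusted p up to 0.114), and without the 3 libraries (−0.60; adjusted p = 0.0856). The average over genotypes, −0.54 ± 0.161 (SE; edgeR adjusted p = 0.0118), was also lost without the 3 libraries (−0.40; adjusted p = 0.0651).

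*Cck* encodes cholecystokinin, which drives gallbladder contraction and satiety. It was 8.67, 7.36, 7.56, and 8.74 CPM in ad libitum–fed NT-/- mice and 5.66, 6.58, 6.01, 7.003, and 6.92 CPM in fasted ones. These groups did not overlap, but the log2 fold change of −0.33 ± 0.123 (SE) fell just short (edgeR adjusted p = 0.0534). With the file set as a block it passed, at −0.34 with an adjusted p of 0.0452, as it did without fed NT+/+ replicate 1 or 2 or fasted NT+/+ replicate 4 (−0.33 each; adjusted p = 0.0434, 0.0483, and 0.0459). It also passed with a filter of 1 CPM on average (−0.32; adjusted p = 0.0453) and with the mouse of the disputed label grouped as NT-/- (−0.34; adjusted p = 0.0414). In NT+/+ mice it was 8.35, 5.92, 6.80, 7.004, and 6.91 CPM with food and 6.78, 6.35, 6.997, 5.25, and 6.16 CPM after fasting (log2 fold change, −0.15 ± 0.116 SE; edgeR adjusted p = 0.395). Averaged over genotypes, *Cck* fell by 0.24 on the log2 scale (SE, 0.0847; edgeR adjusted p = 0.0290), and this call was lost without the 3 libraries (−0.22; adjusted p = 0.0820) and with no filter on low counts (−0.26; adjusted p = 0.0730). It was also lost without any 1 of 6 mice (fed NT+/+ replicate 1, fasted NT+/+ replicate 4, fed NT-/- replicate 1 or 4, fasted NT-/- replicate 1 or 3), where it lay between −0.23 and −0.21 with adjusted p up to 0.0608.

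Neither *Tph1* nor *Tac1* passed in a single genotype. *Tph1*, the rate-limiting enzyme of serotonin synthesis outside neurons, was 9.58 ± 1.195 CPM (SD, n = 5) with food and 12.1 ± 2.58 CPM (SD, n = 5) after fasting in NT+/+ mice (log2 fold change, 0.34 ± 0.140 SE; edgeR adjusted p = 0.0863). It passed with the file set as a block (0.33; adjusted p = 0.0257), and without fasted replicate 2 (0.43; adjusted p = 0.0352), and was higher after fasting in 5 of 5 same-set pairs. In NT-/- mice it was 11.9 ± 1.92 CPM (SD, n = 4) and 12.3 ± 1.07 CPM (SD, n = 5), a log2 difference of 0.05 ± 0.148 (SE). Of the 4 same-set pairs there, *Tph1* was higher after fasting in 1 and lower in 3. *Tac1* had log2 fold changes of −0.18 and −0.21 in the NT+/+ and NT-/- mice, and −0.20 on average (edgeR adjusted p = 0.0994). The average passed in 1 of 9 other settings, with the title number as a block (−0.23; adjusted p = 0.0335). It did not pass with the file set as a block, and passed in 0 of 19 fits without 1 mouse.

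*Gip*, *Sct*, and *Ghrl* did not pass in any comparison. *Gip*, which encodes an incretin of K cells, was between 18.8 and 28.3 CPM over all mice, with log2 fold changes of fasting of 0.03 (95% interval, −0.20 to 0.26) in NT+/+ and 0.15 (−0.10 to 0.39) in NT-/- mice. *Ghrl* had log2 fold changes of 0.23 ± 0.134 and 0.16 ± 0.142 (SE). Exons of *Ghrl* overlap those of 2 genes on the opposite strand, *Gm26982* and *Gm44033*, and the strand setting of the counting is not given in the sources used here, so its reads are uncertain. *Sct* had log2 fold changes of −0.29 ± 0.185 and −0.15 ± 0.194 (SE), with single mice between 2.18 and 5.49 CPM.

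**Figure D3:**
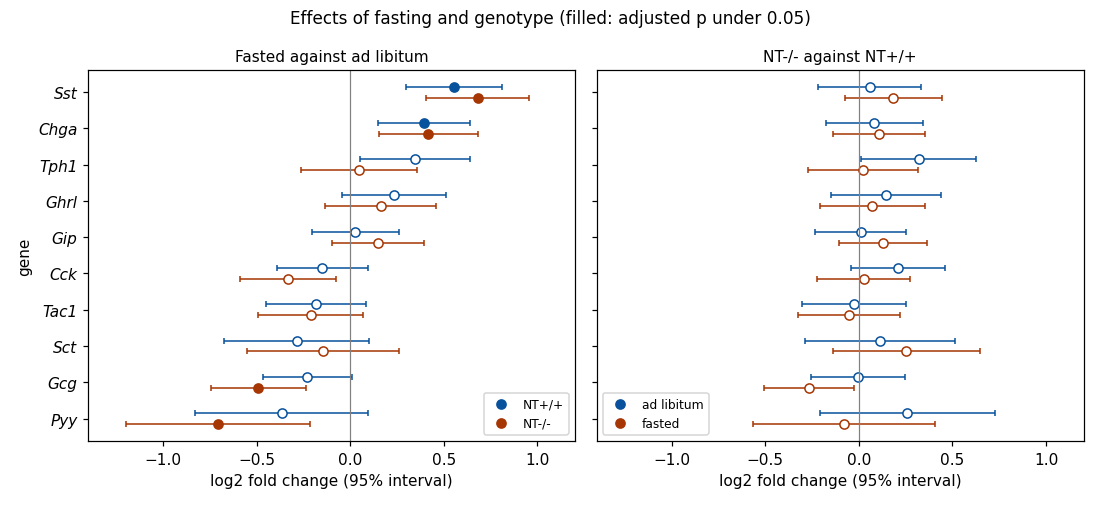
Log2 fold change of each gene with its 95% interval: left, fasted against ad libitum in NT+/+ and NT-/- mice; right, NT-/- against NT+/+ in each diet, with filled points at an adjusted p under 0.05. Filled points appear only on the left, for *Sst* and *Chga* in both genotypes and for *Gcg* and *Pyy* in NT-/- mice.

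No member passed the test between genotypes. In ad libitum–fed mice 0 of 10 passed, against 0.00559% of all genes, which was *Nts* alone, and 1 member was under an unadjusted p of 0.05, against 1.67% of all genes. That gene was *Tph1* (log2 fold change, 0.32; unadjusted p = 0.0427; edgeR adjusted p = 1), with 3 of 4 NT-/- mice above all NT+/+ mice. In fasted mice 0 of 10 passed, again against 0.00559%, and 1 was under an unadjusted p of 0.05, against 9.14%. This was *Gcg* (−0.27; unadjusted p = 0.0326; edgeR adjusted p = 0.482). DESeq2 also called 0 members in both diets, though in fasted mice 5 of the 10 had no adjusted p from it. The 2 genotypes overlapped for every member in both diets, where 0.694% of all genes with food and 1.56% after fasting did not. The 95% intervals show what could be missed, and their widths differed between members. They were narrowest for *Gip*, from −0.23 to 0.25 with food and from −0.10 to 0.36 after fasting. Those of *Pyy* were widest, from −0.21 to 0.72 and from −0.57 to 0.41, followed by *Sct*, from −0.29 to 0.52 and from −0.14 to 0.65. *Tph1* ran from 0.01 to 0.63 with food, and *Sst* from −0.22 to 0.33 and from −0.07 to 0.44. Averaged over diets, 0 of 10 passed, against 0.0224% of all genes.

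The difference between the fasting effects was tested directly, since *Gcg* and *Pyy* passed in 1 genotype only. None of the 10 members passed, as did 0% of all genes, in edgeR and in DESeq2, and 0 members were under an unadjusted p of 0.05 in edgeR (485 genes, or 2.71%, were). For *Gcg* the effect in NT-/- minus that in NT+/+ mice was −0.26 (95% interval, −0.61 to 0.09), and for *Pyy* it was −0.34 (−1.01 to 0.33). A difference between genotypes in the response of these genes was thus not shown.

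Other genes of the enteroendocrine lineage gave mixed results. Of 17 tested transcription factors, 0 rose and 1 fell in NT+/+ mice, and 0 rose and 2 fell in NT-/- mice. Of all genes tested, 21.6% passed in NT+/+ mice and 25.2% in NT-/- mice, so these counts are no higher than the background shares. DESeq2 called 1 factor higher and 1 lower in NT+/+ mice and 0 higher and 3 lower in NT-/- mice. The factor that fell in both was *Rfx3*, which acts in ciliated and endocrine cells, from 20.0 ± 1.26 to 8.95 ± 1.60 CPM in NT+/+ (log2 fold change, −1.16 ± 0.131 SE; edgeR adjusted p = 4.78e-06) and from 19.4 ± 2.33 to 11.1 ± 2.03 CPM in NT-/- mice (−0.80 ± 0.136 SE; adjusted p = 0.000299). *Neurog3*, which marks endocrine progenitors, fell in NT-/- mice (−1.25 ± 0.398 SE; edgeR adjusted p = 0.0265), from 3.23 ± 1.18 to 1.32 ± 0.786 CPM. This call was lost without the 3 libraries (−1.08; adjusted p = 0.102), without fed NT-/- replicate 3 (−0.97; adjusted p = 0.117), and without fasted NT-/- replicate 2 or 3 (−1.14 and −0.97; adjusted p = 0.0581 and 0.0503). On average over genotypes *Neurog3* fell by 0.83 (adjusted p = 0.0204), which was lost without the 3 libraries (−0.64; adjusted p = 0.110) or fed NT-/- replicate 3 (−0.69; adjusted p = 0.0600). *Nkx2-2* fell on average as well (−0.39 ± 0.139 SE; edgeR adjusted p = 0.0295), in 14 of 19 fits without 1 mouse (adjusted p up to 0.0628).

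Of 20 tested genes for granules, hormone processing, and amine handling, none passed in NT+/+ mice, and DESeq2 called 0. Under an unadjusted p of 0.05 in edgeR were 3 of these 20, beside 6088 of all 17875 genes. Of all genes, 21.6% passed in NT+/+ mice, 25.2% in NT-/- mice, and 39.4% on average over genotypes. After fasting of NT-/- mice, the calcium channel gene *Cacna1a* fell (−0.62 ± 0.123 SE; edgeR adjusted p = 0.00108) and the vesicle fusion gene *Snap25* rose (0.84 ± 0.300 SE; adjusted p = 0.0455). The *Snap25* call held in only 6 of 19 fits without 1 mouse and was lost without the 3 libraries (0.59; adjusted p = 0.220). Averaged over genotypes, the monoamine carrier *Slc18a1* and the calcium channel *Cacna1d* rose, by 0.28 and 0.43, and *Stx1a* and *Cacna1a* fell. *Stx1a* lost its call without the 3 libraries (−0.39; adjusted p = 0.0510) or fed NT-/- replicate 2 (−0.37; adjusted p = 0.0507).

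Of 11 tested receptors and serotonin-handling genes, 3 rose and 0 fell in each genotype, and these were *Maoa*, *Slc6a4*, and *Sstr3*. Of all genes, 11.2% rose and 10.4% fell in NT+/+ mice, and 12.5% rose and 12.6% fell in NT-/- mice. DESeq2 called 3 of the 11 higher and 2 lower in NT+/+ mice and 4 higher and 0 lower in NT-/- mice. Averaged over genotypes, 5 of the 11 rose and 2 fell in both tools, beside 19.2% and 20.2% of all genes in edgeR. *Slc6a4*, the serotonin transporter, went from 56.0 ± 3.05 to 82.3 ± 8.48 CPM in NT+/+ and from 63.1 ± 7.79 to 96.6 ± 8.50 CPM in NT-/- mice (log2 fold changes, 0.55 and 0.61; edgeR adjusted p = 0.000147 and 8.00e-05). *Maoa*, which breaks down serotonin, rose by 0.85 and 1.04, with group means of 344 to 753 CPM. Which crypt cells carried the rises of *Slc6a4* and *Maoa* was not tested. *Sstr3*, a somatostatin receptor, rose by 0.80 and 1.12 from mean levels under 1 CPM, and its call in NT+/+ mice held in 14 of 19 fits without 1 mouse and was lost without the 3 libraries (0.74; adjusted p = 0.0532). The receptors that fell on average were both for serotonin, *Htr4* by 0.54 (edgeR adjusted p = 0.0112) and *Htr1b* by 1.69 (adjusted p = 0.0311). *Htr4* held in all 19 fits without 1 mouse and without the 3 libraries, whereas *Htr1b*, at mean levels under 1 CPM, held in 12 of 18 such fits and not without the 3 libraries (−1.47; adjusted p = 0.103). The receptor of glucagon-like peptide, *Glp1r*, rose by 0.71 on average (adjusted p = 0.0294), in 14 of 19 fits without 1 mouse, but not without the 3 libraries (0.67; adjusted p = 0.0622).

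Among 10 tested nutrient and bile acid sensors and transporters, *Slc15a1* and *Slc5a1* rose in both genotypes and the fatty acid receptor *Ffar2* fell in NT-/- mice (−0.86 ± 0.245 SE; edgeR adjusted p = 0.0146). Of all genes, 21.6% passed in NT+/+ mice and 25.2% in NT-/- mice. The *Ffar2* call was lost without the 3 libraries (−0.65; adjusted p = 0.0786) or fed NT-/- replicate 2 (−0.64; adjusted p = 0.0786), and that of *Slc5a1* in NT+/+ mice held in 8 of 19 fits without 1 mouse and was lost without the 3 libraries (0.43; adjusted p = 0.124). On average over genotypes all 3 genes kept their calls in those fits. Group means were 192 to 573 CPM for *Slc15a1* and 759 to 1471 CPM for *Slc5a1*, against 142.5 to 164.1 CPM for the 10 hormone genes summed. Which crypt cells carried the rises of these transporters was not tested.

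Markers of some other cell types moved with fasting too. Of all genes tested, 11.2% rose and 10.4% fell in NT+/+ mice, and 12.5% rose and 12.6% fell in NT-/- mice. Of 10 enterocyte markers, 8 rose in NT+/+ and 10 in NT-/- mice. Their summed level was 4949 to 10470 CPM in ad libitum–fed and 10460 to 20890 CPM in fasted NT+/+ mice, and 7588 to 10980 and 18650 to 24800 CPM in NT-/- mice. Stem cell markers summed to 2272 to 3478 and 1457 to 2631 CPM in NT+/+ mice, and to 2075 to 3057 and 1485 to 1977 CPM in NT-/- mice, with 1 and 2 of 6 falling. Single stem cell markers were divided in NT+/+ mice, with 3 log2 fold changes above 0 and 3 below (−0.63 to 0.63). In NT-/- mice 1 was above 0 and 5 were below (−0.92 to 0.12). Of 7 goblet cell markers, 1 rose and 2 fell in NT+/+ mice, and 1 rose and 4 fell in NT-/- mice. Of 7 Paneth cell markers, 0 were called in NT+/+ mice and 1 fell in NT-/- mice. Of 6 tested tuft cell markers, 0 were called in either genotype. Of 7 T cell markers, 0 were called in NT+/+ mice and 1 rose in NT-/- mice. Counts of 0 or 1 among 6 or 7 markers are close to the background shares above. Markers of the distal small intestine, where *Gcg* and *Pyy* are more common, summed to 44.7 to 53.7 and 39.6 to 53.1 CPM in fed and fasted NT+/+ mice and to 35.5 to 58.4 and 32.2 to 51.7 CPM in NT-/- mice. These 4 markers moved in opposite directions, with log2 fold changes from −2.37 to 1.99 in NT+/+ and from −3.15 to 1.26 in NT-/- mice. The bile acid transporter *Slc10a2* rose in NT+/+ mice (1.99; edgeR adjusted p = 0.00690) and *Fgf15* fell in NT-/- mice (−3.15; adjusted p = 0.0354), both named after their values were seen. The 4 markers of the proximal small intestine summed to 168 to 221 and 194 to 244 CPM in fed and fasted NT+/+ mice. In NT-/- mice they summed to 173 to 237 and 227 to 285 CPM. Of 3 tested, 0 were called in NT+/+ mice and 1 rose in NT-/- mice. The part of these shifts in the results for the hormone genes, and for the genes of the other lists, was not tested. Enteric neurons, the pancreas, and the stomach make some of the same peptides. Mast cells also use *Tph1*, and their markers summed to at most 9.44 CPM in any mouse. Sums over markers of enteric neurons, enteric glia, pancreas, and stomach were at most 5.55, 3.70, 4.49, and 2.51 CPM in any mouse.

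**Figure D4:**
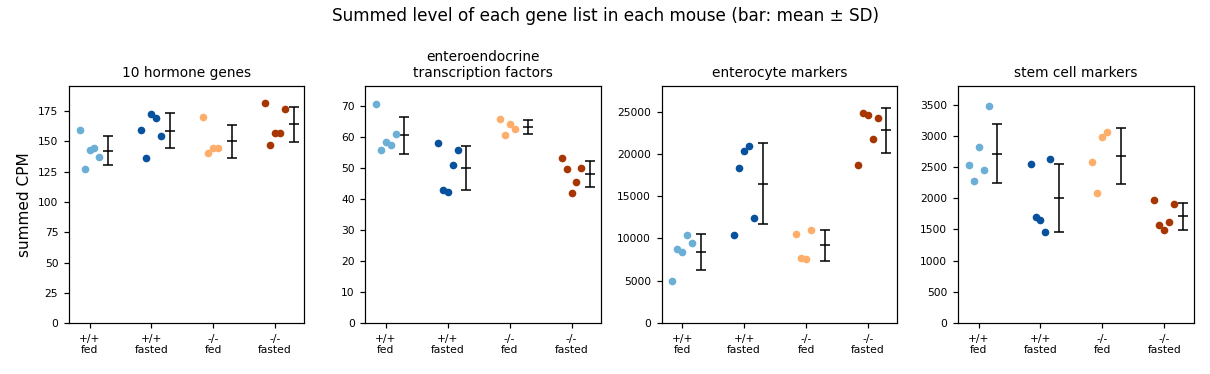
Summed CPM of 4 gene lists in each mouse, by group (fed is ad libitum), with a bar for the mean ± SD. The sum of the 10 hormone genes lies between 127.3 and 181.9 CPM in all groups, whereas enterocyte markers reach 24800 CPM in fasted NT-/- mice from at most 10980 CPM in fed ones.

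No pair of hormone genes was shown to vary together among mice of the same group. Over the 45 pairs of members, the correlation of deviations from the group means had a median r of 0.174 and ranged from −0.31 to 0.65, and 34 pairs were above 0. None passed after adjustment. The mouse of file set 2 had the lowest mean deviation of the 10 members in all 4 groups (−0.919 to −0.435, in units of the within-group SD). With the set also removed, the median r was 0.0639, 27 of 45 pairs were above 0, and again none passed. The highest was *Cck* with *Gip* (r = 0.65, permutation p = 0.00696; rho = 0.621, permutation p = 0.00981; adjusted p = 0.237 and 0.221; n = 19), with r = 0.649 without the 2 mice farthest from the median and 0.592 with the set removed. The genes whose deviations lay closest to the mean of the members were *Zswim1*, *Lypla2*, *Jade2*, *Pgp*, *Exosc4*, *Hpdl*, *Hdhd2*, and *Tcf3*, with r between 0.848 and 0.910 over 19 mice. These were the highest of all genes tested, the points share libraries and depth, and none is in the lists of enteroendocrine genes used here.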

How the data were processed

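Per the labels and the study's methods, libraries depleted of ribosomal RNA were read from 1 end, trimmed with Trimmomatic 0.39, and mapped with RSEM to Ensembl transcripts of GRCm38. The authors deposited, per gene and mouse, RSEM expected counts (not normalized) and TPM (scaled to length and library, used only for levels among genes). The RSEM version and strand setting are not given in the sources used here. RSEM divides reads that fit more than 1 gene between them.

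Expected counts were rounded. edgeR 4.0.16 (R 4.3.3) with TMM factors, filterByExpr, and 1 coefficient for each group was fitted to 19 mice (15 residual degrees of freedom), with the quasi-likelihood test and Benjamini-Hochberg adjustment over 17875 genes. Standard errors are the log2 fold change over the square root of F. Exact permutation tests used log2(CPM + 1) and were two-sided. The test was checked for bias and false calls on counts simulated for independent mice, without the deviations that mice of the same file set share. The check set no bound on how many true changes were found. Replicates are separate mice by title, so p-values measure the spread between mice.

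Mice of the same file set number deviated together: in each of the 4 comparisons of 2 groups every same-set pair had r above 0.1 (lowest, 0.117). Over all 27 same-set pairs, which include groups that differ in both diet and genotype, 24 were above 0.1 (lowest, 0.067). What the set number stands for is not stated. It differs from the number in the titles for replicates 3 and 4 of the fed NT-/- mice, which are of sets 4 and 5. Where sex is labeled, all mice of a set were of the same sex, so same-set pairs were also same-sex pairs. The part of sex in these shared deviations was not tested. Fits with the set number as a block are alternatives. Comparisons that share mice are not independent.

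The members and gene lists were chosen with earlier results of these data known. Other genes were named by rule: from each list up to 3 called genes with the largest rise and 3 with the largest fall, and the 8 nearest genes by r. Alternatives were RLE factors, DESeq2 1.42.0, other filters, blocks, sex, the disputed label, only the groups compared, leaving out each mouse, and, added after seeing the data, leaving out 3 libraries and ordering levels within each diet. Promoters came from RefSeq.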

Additional observations from a re-analysis of the deposited data

Results flagged for a closer look

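Of 40 groups of 4 or 5 mice checked (10 genes in 4 groups), 2 held a mouse far from the others of its group, and chance gives about 1 in 20. *Gcg* in replicate 3 of the ad libitum–fed NT-/- mice was 27.06 CPM, with the other 3 at 29.62 to 29.82 CPM. *Sst* in replicate 2 of the fasted NT-/- mice was 10.33 CPM, with the others at 13.12 to 14.2 CPM, and this is the library with the lowest total count.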

How the results depend on the processing

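The direction and call of *Sst* held in both genotypes under every alternative run, and those of *Chga* under all but the fits without 1 mouse given above. Leaving out 1 mouse moved the number of members called by fasting from 1 to 3 in NT+/+ and from 2 to 5 in NT-/- mice, and without the 3 libraries, a choice made after seeing the data, it was 2 in NT-/- mice and 3 in the average. The log2 fold changes that carry or miss a call ranged, over fits without 1 mouse, from 0.33 to 0.47 and 0.34 to 0.52 for *Chga* in NT+/+ and NT-/- mice, from −0.83 to −0.56 for *Pyy* and from −0.37 to −0.29 for *Cck* in NT-/- mice, from −0.27 to −0.21 for *Cck* on average, and from 0.23 to 0.43 for *Tph1* in NT+/+ mice.

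The number of all genes called by genotype depended on the method. DESeq2 called 3 genes in ad libitum–fed mice, 101 in fasted mice, and 55 on average over diets, against 1, 1, and 4 in edgeR. The average gave 10 genes with a replicate block by title number, 15 with the file set as a replicate block, 1 with sex as a covariate, 7 without the 3 libraries, and 1 with the disputed mouse grouped as NT-/-, where each diet gave 0. Without 1 mouse it was 1 to 6 on average and 1 to 4 in fasted mice. No alternative called a member by genotype. Among the genes of the other lists, *Snap25* in NT-/- mice and *Sstr3* in NT+/+ mice also lost their calls with no filter and with the disputed mouse regrouped, *Nkx2-2* on average with no filter, *Slc5a1* in NT+/+ mice with no filter or with sex, and *Neurog3*, *Snap25*, and *Slc5a1* with only the groups compared in the fit. The replicate blocks changed no member's call but those of *Tph1*, *Cck*, and *Tac1* given above.

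Log2 fold changes close to 0, none of them called, changed sign under some settings. By genotype in ad libitum–fed mice, *Gcg* was 0.00437 without a filter, 0.0181 with the title block, 8.82e-05 with sex, 0.0674 without the 3 libraries, and −0.0442 to 0.0675 without 1 mouse. *Tac1* there was 0.0185 with the title block and −0.0743 to 0.0227 without 1 mouse, *Gip* was −0.0112 with the file-set block and −0.0889 to 0.0820 without 1 mouse, and *Sst* and *Chga* ran from −0.0320 to 0.143 and from −0.0227 to 0.145. By genotype in fasted mice, *Cck* was −0.000203 with sex, −0.00497 without the 3 libraries, and −0.0336 to 0.0701 without 1 mouse, and *Pyy* was 0.0166 without the 3 libraries and −0.143 to 0.00445 without 1 mouse. There *Tac1* was 0.0701 with the disputed mouse regrouped, 0.0271 without the 3 libraries, and −0.120 to 0.0195 without 1 mouse, and *Tph1* was −0.0414 with that mouse regrouped and −0.0567 to 0.133. On average over diets, *Tac1* was 0.0230 with it regrouped. By fasting, *Tph1* in NT-/- mice was −0.000613 with the file-set block and −0.0528 to 0.124 without 1 mouse, *Sct* in NT-/- mice was 0.0350 without the 3 libraries, and *Gip* in NT+/+ mice ran from −0.0219 to 0.0846. For the difference of the fasting effects, *Chga* was −0.00945 with sex, −0.0723 with the mouse regrouped, and −0.0500 to 0.130 without 1 mouse, *Tac1* was 0.0943 with it regrouped, 0.0613 without the 3 libraries, and −0.0961 to 0.0434, and *Ghrl* ran from −0.135 to 0.0107. The cause of these changes was not tested. The order of levels, the correlated pairs, and the exact tests kept their counts with the other pseudocounts, and the order within each diet, chosen after seeing the data, gave 6 of 9 neighbors that differed, against 7 of 9 in all mice. Depth limits *Pyy* most, with as few as 6 counts in a mouse.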
